A study of Mus musculus with 24 samples.

Results

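The ribosomal protein genes are the genes for the protein components of the cytoplasmic ribosome, and 86 of the 23679 genes listed in all 4 deposited tables were counted among them. They were taken by name: protein-coding entries whose symbol begins with Rpl or Rps and a digit, with Rplp0, Rplp1, Rplp2 and Rpsa, and without the S6 kinase genes and the entries marked as pseudogenes. The rule used no measured value. Of the 86, 52 have a large-subunit symbol (Rpl or Rplp) and 34 a small-subunit symbol (Rps or Rpsa). Rps19bp1, which encodes a protein that binds Rps19, came in by its symbol alone.

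The study asked whether Ret and Sema3d act on each other as the enteric nervous system forms, and sequenced poly-A RNA of 24 whole guts from mouse embryos of embryonic day 12.5. There were 6 Ret-Sema3d double null, 6 Sema3d null, 6 Ret null and 6 wildtype guts, with 3 females and 3 males in each genotype, and the nulls were homozygous. All 4 genotypes were of a mixed C57BL/6, 129/Sv and C3H background. Each library came from 1 gut and thus mixes epithelium, mesenchyme, vessels and, where present, nerve cells. Ret is a tyrosine kinase receptor for ligands of the GDNF family, and Sema3d is a secreted guidance cue.

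The ribosome has a large subunit, which joins amino acids, and a small subunit, which reads the messenger RNA. Each ribosomal protein is needed in a fixed ratio to the others, and in mammals their genes are scattered over the genome rather than clustered. Their messenger RNAs begin with a run of pyrimidines, the terminal oligopyrimidine (TOP) motif, through which mTOR signalling adjusts their translation. Ribosomal protein genes have also left very many processed pseudogenes, intronless copies made from their messenger RNAs, and reads can fit both a gene and its copies. When ribosome assembly is disturbed, free Rpl5 and Rpl11 bind the p53 regulator Mdm2.

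The 86 genes lie on 19 chromosomes, with 14 on chromosome 7 and 4 on the X chromosome. A RefSeq promoter (GRCm38.p6, 250 bases before to 50 after the start) was matched by symbol for 65 of them. A C and the 6 pyrimidines after it on the sense strand, all within 25 bases of the start, stood in 34 of the 65 (52.3%), against 22.7% of all 27025 promoters. CCGGAAG, the letters that ETS-family factors such as GABP recognise, stood on either strand in 25 of the 65 (38.5%), against 9.12% of all promoters, and AAGATGGC, the core of the YY1 motif, in 5 (7.69%), against 2.88%. CCGGAAG and AAGATGGC can share the letters AAG, and CCGGAAG on the other strand can share letters with the pyrimidine run, so 1 stretch can count for more than 1 motif; a match is a description of the sequence only. In Rps6, Rps18, Rpl28, Rpl38 and Rplp2 the pyrimidine run begins at positions -1, -2, -2, 1 and -4 from the annotated start. Over the 34 members it begins between -25 (Rpl39l) and 18 (Rps27rt), so these 5 do not stand for all. The stretches of 30 bases around the start sites of these 5, taken from the 34 members with the run, show it in capitals.
Rps6, chr4:86857349-86857378, minus strand: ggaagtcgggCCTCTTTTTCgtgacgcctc
Rps18, chr17:33955648-33955677, minus strand: gtcacttccgCTCTCTCTTCCacaggaggc
Rpl28, chr7:4792953-4792982, plus strand: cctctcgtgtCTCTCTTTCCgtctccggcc
Rpl38, chr11:114668570-114668599, plus strand: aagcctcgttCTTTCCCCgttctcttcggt
Rplp2, chr7:141447637-141447666, plus strand: gcgtcagcgtCTTCCTTTCgccgccggacg

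The deposited values are the authors' fitted models, 1 table per null genotype against wildtype over 12 guts, and another over all 24 guts that tests the Ret by Sema3d interaction. The 3 comparisons with wildtype share the same 6 wildtype guts. No value per gut is given in them, so the depth of each library is unknown and a genotype is described here by its fitted level in normalised counts. As a check of the labels, the authors' deposited tables give Ret a log2 change of -8.34 for Ret null and -10.36 for double null guts, and Sema3d one of -1.06 for Sema3d null and -1.04 for double null guts. Defining markers of enteric neurons were lost with Ret: 12 of 12 were called lower in Ret null guts and 12 of 12 in double null guts, at an adjusted p below 0.05 in the authors' deposited tables. Because the guts were sequenced in bulk, fewer cells of a type and less RNA per cell cannot be told apart. Every value after ± is a standard error derived from the deposited coefficient and deviances over 12 guts, or 24 for the interaction.

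The members' fitted levels were high in all 4 genotypes. In wildtype guts the median member had a fitted level of 5154 normalised counts, 70 of the 86 lay between 2000 and 10000, and the members' levels summed to between 3.896% and 3.900% of the total over the converged genes of the 4 tables. The large P0 stalk protein gene Rplp0 had fitted levels of 15389 in double null, 17553 in Sema3d null, 15616 in Ret null and 16275 normalised counts in wildtype guts. Rpl4, a large-subunit protein of the exit tunnel, had 14875, 16356, 15895 and 15419 in the same order of genotypes. Rpsa, a small-subunit protein also known as the laminin receptor, had 13375, 16096, 14391 and 13886. In all of these genes the Sema3d null level was the highest, and this held for 73 of the 82 members with a level of at least 50.

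Per kilobase of transcript, the wildtype levels of the structural protein genes lay between 2704 and 14551 normalised counts. The median was 7721 normalised counts per kilobase over 46 large-subunit genes (quartiles 5145 and 9992) and 9272 over 30 small-subunit genes (quartiles 6135 and 10764). Rpl23a stood highest with 14551 per kilobase, followed by Rps24 with 14220 and Rps12 with 13606. Rpl27, with 2704 per kilobase, stood lowest among the large-subunit genes. Every 100-base stretch of its coding sequence also stands in another gene's transcript. In the fit of Ret null against wildtype guts, wildtype guts had 1623 normalised counts for Rpl27 and 1428 for its copies. Rps20 was left out because its annotated transcript is unusually long. The length is that of 1 annotated transcript, so these values depend on the transcript chosen. They also depend on how reads were divided between a gene and its copies, which was not tested.

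The members named as paralogs of a ribosomal protein were far below their partners. Rpl3l, the paralog of Rpl3 known from striated muscle, had a wildtype level of 0.335 normalised counts, and Rpl39l, a paralog of Rpl39 known from the testis, had 0.346, both close to none; the fit of Rpl3l in double null guts was unbounded and gives no fold. Per kilobase, Rpl22l1 had 1811 against 7789 for Rpl22, Rpl36al had 1822 against 5474 for Rpl36a, Rps27l had 894 against 11114 for Rps27, and Rpl7l1 had 1090 against 11921 for Rpl7. In none of these 4 pairs did a paralog pass an adjusted p of 0.05 in any of the authors' deposited tables. Rpl22l1, which in mouse is known to rise when Rpl22 is lost, had log2 changes of -0.09 ± 0.06 in Ret null, 0.01 ± 0.09 in Sema3d null and -0.06 ± 0.08 in double null guts per the authors' deposited tables. Those of Rpl22 were 0.03 ± 0.04, 0.08 ± 0.09 and 0.00 ± 0.05 in the authors' deposited tables. The members Rpl6l, Rps27rt and Rps19bp1 were also low, with wildtype levels of 14.03, 17.5 and 162.8 normalised counts. Rpl6l is a processed pseudogene in GENCODE release M21, although the deposited tables list it as protein-coding.

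In Ret null guts most ribosomal protein genes lay close to wildtype, and the middle of their coefficients (the interquartile range) ran only from 0.0087 to 0.051 on the log2 scale. The authors' deposited table called 2 of the 86, Rpl29 higher and Rps3a1 lower, against 2.66% of all 24602 genes tested. At an unadjusted p below 0.05 there were 5 members (5.81%), against 8.43% of all genes. The median log2 change of all 86 members was 0.026 (a change of 1.84%), against 0.0079 over the 12235 genes with a level of at least 50. By the authors' deposited table, a positive coefficient was given to 65 of the 82 members at that level, against 53.9% of all genes, and the members' derived errors had a median of 0.044. The large-subunit median was 0.029 and the small-subunit median 0.024. Among the members at that level, the coefficients farthest from 0 besides Rpl29 and Rps3a1 were those of Rpl26, Rps2, Rps18 and Rpl34, which are described with their copies. After these the lowest were Rps15a at -0.15 ± 0.08 and Rpl15 at -0.09 ± 0.11 in the authors' deposited table, and neither passed an unadjusted p of 0.05.

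**Figure D1:**
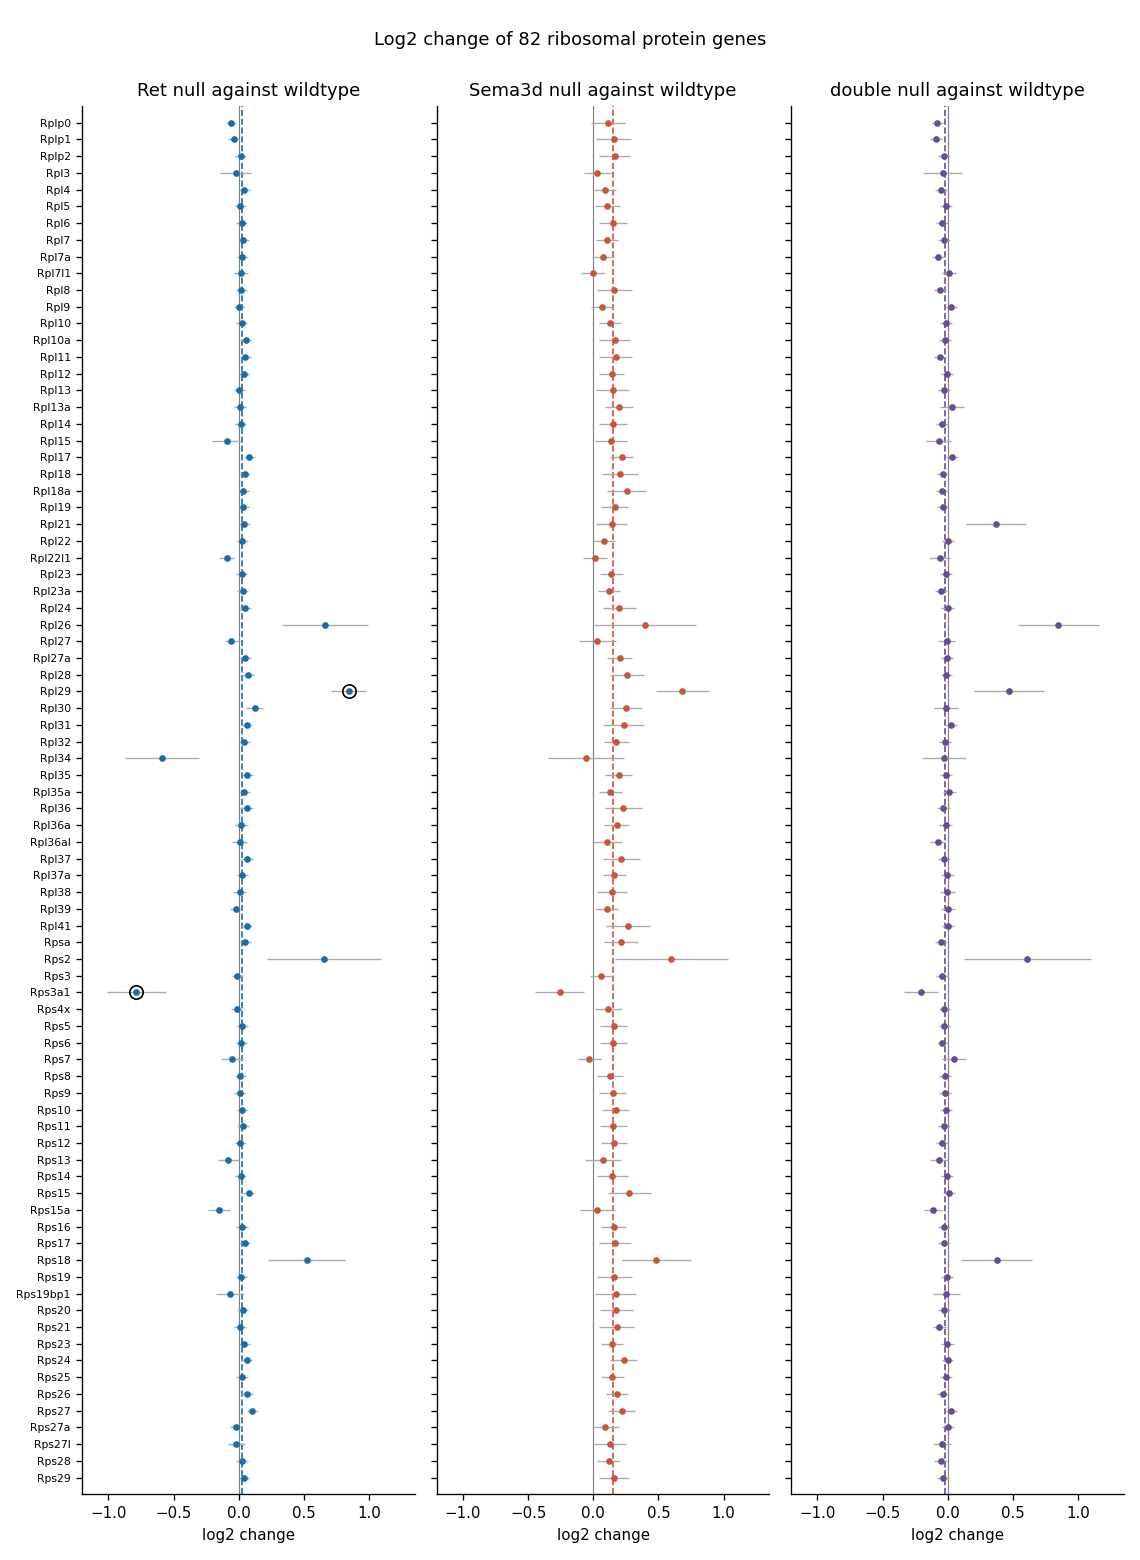
Log2 change against wildtype of the 82 members with a fitted wildtype level of at least 50 normalised counts, large-subunit genes above small-subunit genes, in guts of Ret null, of Sema3d null and of double null embryos. Bars are ± 1 derived standard error over 12 guts, dashed lines are the medians of the points shown (0.026, 0.154 and -0.023), and open circles mark the 2 members called in Ret null guts (adjusted p below 0.05); Rpl29, Rps3a1, Rpl34, Rpl26, Rps2 and Rps18 stand apart from the column of the others in that comparison.

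Rpl29 (ENSMUSG00000048758.13, chr9:106429454-106431568, plus strand, GRCm38) encodes a protein of the large subunit that in the mouse is not essential for life. Its fitted level was 4006 in double null, 4636 in Sema3d null, 5172 in Ret null and 2883 normalised counts in wildtype guts. All 3 null genotypes lay above wildtype, with Ret null highest. In Ret null guts Rpl29 rose by a log2 change of 0.84 ± 0.14 (95% interval 0.58 to 1.11; adjusted p = 5.36e-08 by DESeq's likelihood-ratio test with Benjamini-Hochberg adjustment in the authors' deposited table). The authors' deposited tables give it 0.68 ± 0.20 for Sema3d null guts (p = 7.18e-04, adjusted p = 0.328) and 0.47 ± 0.27 for double null guts (p = 0.0794, adjusted p = 0.888). Those did not pass the threshold, and each interval overlaps that of Ret null guts.

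Rps3a1 (ENSMUSG00000028081.6, chr3:86137940-86142702, minus strand, GRCm38) encodes the small-subunit protein eS1. Its fitted level was 9144 in double null, 8777 in Sema3d null, 6116 in Ret null and 10532 normalised counts in wildtype guts. Ret null guts were lowest and wildtype guts highest. Its log2 change in Ret null guts was -0.79 ± 0.23 (95% interval -1.23 to -0.34, adjusted p = 0.0252 in the authors' deposited table from DESeq). For Sema3d null guts the authors' deposited tables give -0.26 ± 0.19 (adjusted p = 1.000), and for double null guts -0.20 ± 0.13 (adjusted p = 0.963).

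Rps3a1 has processed copies that are almost the same sequence, and they moved the other way. Rps3a2 (chr14:88123017-88123808, minus strand) differs from the coding sequence of Rps3a1 at 4 of 792 bases, and Rps3a3 (chr13:108670603-108671397, plus strand) at 9 of 795 aligned bases. The differences of Rps3a2, counted from 1 at the A of the start codon, are T216C, T534C, A645T and T668C, with the base of Rps3a1 first. The stretch of 60 bases from position 609 to 668 shows how little separates the 3 genes: capitals in Rps3a1 mark positions where either copy differs, and capitals in a copy mark its differing bases, which are A645T and T668C in Rps3a2 and A660G in Rps3a3.
Rps3a1: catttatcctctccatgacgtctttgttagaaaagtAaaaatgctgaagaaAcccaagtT
Rps3a2: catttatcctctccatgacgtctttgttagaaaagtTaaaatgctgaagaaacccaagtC
Rps3a3: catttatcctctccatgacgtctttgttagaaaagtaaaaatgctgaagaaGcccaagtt

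The fitted level of Rps3a2 was 831 in double null, 1717 in Sema3d null, 2956 in Ret null and 35.1 normalised counts in wildtype guts. That of Rps3a3 was 507 in double null, 1095 in Sema3d null, 1843 in Ret null and 2.80 in wildtype guts. For both copies the order of the 4 genotypes was the reverse of that of Rps3a1, with Ret null highest and wildtype lowest. The log2 change of Rps3a2 was 6.40 ± 1.12 in Ret null (adjusted p = 9.75e-07), 5.62 ± 1.19 in Sema3d null (adjusted p = 0.0103) and 4.57 ± 2.15 in double null guts (adjusted p = 0.623) per the authors' deposited tables.

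The sum of Rps3a1 and the 5 genes that share a 100-base coding window with it was 10493 in double null, 11598 in Sema3d null, 10923 in Ret null and 10583 normalised counts in wildtype guts. The copies made up 12.9% of it in double null, 24.3% in Sema3d null, 44.0% in Ret null and 0.474% in wildtype guts. From the 12-gut tables the log2 change of the sum in Ret null guts was 0.046, against -0.79 for Rps3a1 alone. The called decrease of Rps3a1 is given as uncertain for this gene, and how reads were divided between it and its copies was not tested.

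**Figure D2:**
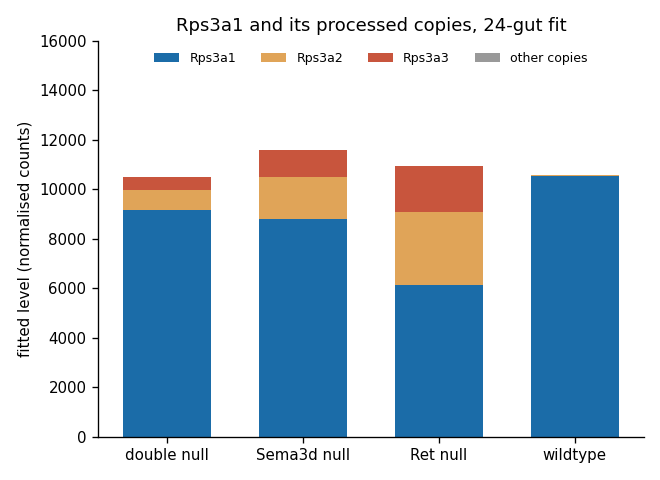
Fitted level, in normalised counts, of Rps3a1 and of the genes that share coding windows with it, stacked for double null, Sema3d null, Ret null and wildtype guts from the 24-gut fit. The stacks reach 10493, 11598, 10923 and 10583, while the Rps3a1 part is 9144, 8777, 6116 and 10532; the other copies are too few to be seen.

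Sharing of this kind was common among the members. Of the 86, 75 had at least 1 coding window of 100 bases that stands unchanged in another gene's transcript, 58 had 50% or more of their windows shared, and 22 had all of them shared. In Ret null guts 9 members had a derived error over 2 times the median, and 8 of these had a shared window: Rps2, Rpl26, Rps18, Rpl34, Rps3a1, Rpl29, Rpl3 and Rpl15. The ninth was the low-level Rps19bp1, which had none. Among all 82 members the rank correlation between derived error and share of windows was 0.00 in Ret null guts (Spearman's rho across genes, which share libraries and are not replicates).

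For most of these members the coefficient came closer to 0 once copies were added. Rps2, a small-subunit protein at the messenger entry site, had log2 changes of 0.66 ± 0.44 in Ret null, 0.60 ± 0.43 in Sema3d null and 0.61 ± 0.49 in double null guts per the authors' deposited tables, and none passed an unadjusted p of 0.05. Its sums with copies had 0.029, 0.18 and -0.0063. Rps18 had 0.52 ± 0.29, 0.48 ± 0.26 and 0.37 ± 0.28 in the authors' deposited tables, and its sums 0.019, 0.10 and -0.013. Rpl34 had -0.59 ± 0.28 in Ret null guts per the authors' deposited table (adjusted p = 0.518), and its sum 0.046. Rpl26, whose protein binds p53 messenger RNA in human cells, had 0.66 ± 0.33 in Ret null, 0.40 ± 0.39 in Sema3d null and 0.85 ± 0.31 in double null guts per the authors' deposited tables (smallest adjusted p = 0.206), and its sums 0.21, 0.22 and 0.15. Over the 82 members the standard deviation of the log2 change was 0.189 in Ret null, 0.119 in Sema3d null and 0.147 in double null guts, and with copies added it was 0.0667, 0.0557 and 0.0626. With copies whose fits did not converge also added it was 0.0668, 0.114 and 0.0566.

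For Rpl29 the sum with copies turned on 2 of its 14 copies, whose fits did not converge in every table. In the 24-gut fit, where neither converged, Gm13841 had a level of 250 in double null, 395 in Sema3d null, 4.46 in Ret null and 637 normalised counts in wildtype guts, and Gm8210 had 105, 51.1, 2.36 and 1207 in the same order of genotypes. Both were thus highest in wildtype, where Rpl29 was lowest. In the Ret null table both converged, with log2 changes of -7.16 ± 1.56 and -9.43 ± 2.13 for Ret null guts per the authors' deposited table. There the sum was 5101 in Ret null and 3846 normalised counts in wildtype guts, a log2 change of 0.41, against 0.84 for Rpl29 alone.

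In the other comparisons the direction of the Rpl29 sum depended on copies whose fits did not converge. For Sema3d null guts the sum had a log2 change of 0.21 without the 1 such copy, Gm13841, and -0.66 with it. For double null guts it had 0.47 without both copies, the others standing at only 43.0 normalised counts in wildtype guts, and -0.43 with both. With these included, the same 6 wildtype guts had a sum of 8032 in the Sema3d null table and 5700 in the double null table. In the 24-gut fit, with all copies included, the sum had 0.13 in Ret null, 0.11 in Sema3d null and -0.12 in double null guts. The called increase of Rpl29 is given as uncertain for this gene, and how reads were divided between it and its copies was not tested.

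The sums have no error of their own, and where not said otherwise they leave out copies whose fits did not converge or were unbounded. For Rps2 these were 8 of 31 for Ret null, 8 for Sema3d null and 5 for double null guts. Rpl21, the member with most copies along with Rps2 (31 each), had 0.04 ± 0.05 in Ret null guts per the authors' deposited table, and its sum, with 5 copies left out, 0.31.

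**Figure D3:**
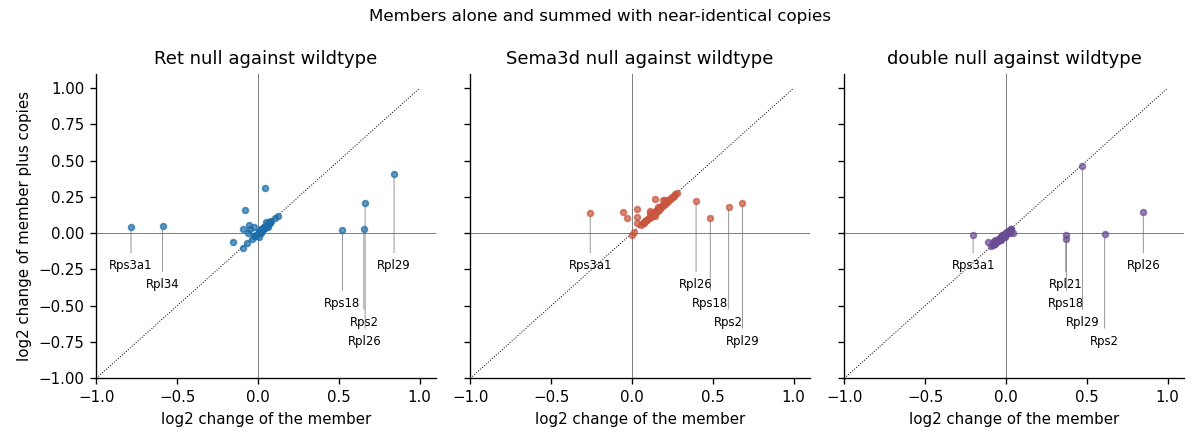
Log2 change of a member alone (horizontal axis) against the log2 change of the member summed with the genes that share its coding windows (vertical axis), for 82 members in guts of Ret null, of Sema3d null and of double null embryos against wildtype. The dotted line marks equal values; Rps3a1, Rpl34, Rps18, Rps2 and Rpl26 move toward the others when summed, and the sum of Rpl29 is drawn at 0.41, 0.21 and 0.47, the last 2 without copies whose fits did not converge; these turn it to -0.66 and -0.43.

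In Sema3d null guts nearly all ribosomal protein genes had small positive coefficients of much the same size, and no single gene passed the test. The authors' deposited table called 0 of the 86, against 0.0404% of all 24747 genes. At an unadjusted p below 0.05 there were 9 members (10.47%), all higher, against 4.53% of all genes in either direction and 2.19% higher. The 9 include the low-level Rpl6l, a processed pseudogene in GENCODE release M21. The median log2 change over all 86 was 0.157 (a change of 11.5%), against 0.0030 over the 12372 genes with a level of at least 50, and the authors' deposited table gave a positive coefficient to 78 of the 82 members at that level, against 50.9% of all genes. Large-subunit and small-subunit genes had medians of 0.159 and 0.156. The interquartile range over all 86 was 0.117 to 0.201. Within each comparison with wildtype all members share the same 12 guts, so counts of members do not come from independent measurements.

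The errors were wider here than in the other comparisons, with a median of 0.107 per member, against 0.044 for Ret null and 0.046 for double null guts. Rps24, a small-subunit protein mutated in human Diamond-Blackfan anaemia, had a level of 7803 in Sema3d null and 6655 normalised counts in wildtype guts, a log2 change of 0.23 ± 0.10 (p = 0.0234, adjusted p = 1.000 in the authors' deposited table). Rps27, a zinc-finger protein of the small subunit, had 4246 in Sema3d null and 3656 in wildtype guts, a change of 0.22 ± 0.10 (p = 0.0343, adjusted p = 1.000 in the authors' deposited table). Rpl28 had 7669 in Sema3d null and 6427 in wildtype guts, a change of 0.26 ± 0.13 (p = 0.0481 in the authors' deposited table). Rps6, the small-subunit protein phosphorylated by S6 kinases, had 9976 in Sema3d null and 8990 in wildtype guts, a change of 0.15 ± 0.10 (p = 0.132 in the authors' deposited table). Rpl5 and Rpl11, the Mdm2-binding pair, had 0.11 ± 0.10 and 0.17 ± 0.13 in the authors' deposited table. The members with negative coefficients were Rps3a1, Rpl34, Rps7 and Rpl7l1, at -0.26, -0.05, -0.03 and -0.0017 in the authors' deposited table, none of which passed the test.

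Other short genes also had more positive than negative coefficients in this comparison. Among protein-coding genes that are not members and have a coding length under 1000 bases, the median log2 change in Sema3d null guts was 0.047 over 3441 genes (66.4% positive). Among those of at least 3000 bases it was -0.070 over 1807 genes. The members are short, with a median coding length of 453 bases. With the trend of the other genes over coding length removed, the members' median in Sema3d null guts was 0.095, and 78 of 85 with a coding length were above the trend. In Ret null guts the same step gave 0.0056 and in double null guts -0.011. What sets this trend over length was not tested.

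**Figure D4:**
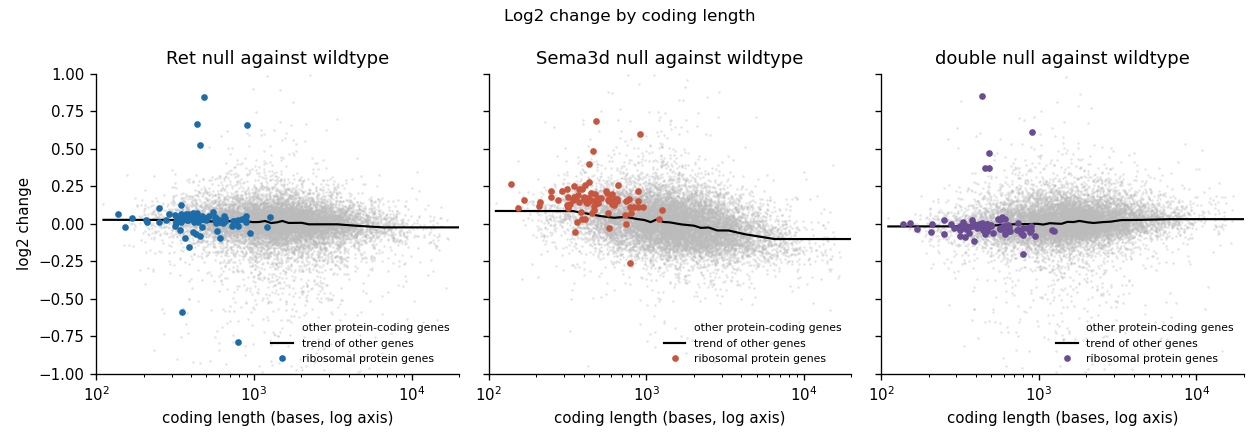
Log2 change (vertical axis) against coding length in bases (horizontal log axis) for protein-coding genes with a level of at least 50 normalised counts, in guts of Ret null, of Sema3d null and of double null embryos against wildtype. Grey points are other genes, the black line is their binned median trend and coloured points are ribosomal protein genes; in Sema3d null guts the line falls with length and most members lie above it, while values beyond ± 1 are not shown.

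Markers of neighbouring organs had a higher summed level in Sema3d null guts, without a called gene. Of 9 measured pancreas and liver markers, 0 were called and 3 had an unadjusted p below 0.05. Their levels summed to 5027 in Sema3d null and 2355 normalised counts in wildtype guts, with none of the 9 at 0 in wildtype. In the other comparisons 8 of these markers had converged and bounded fits. Their sum was also higher in double null guts, at 2543 against 1734 in wildtype guts. In Ret null guts it was lower, at 1038 against 1676 in wildtype guts. The 10 gut mesenchyme and smooth muscle markers summed to 25061 in Sema3d null and 23490 in wildtype guts, the 12 gut epithelium markers to 7951 and 7724, and the 10 erythroid markers to 39511 and 34315, with 0 called in each list. The 10 endothelium markers summed to 7197 in Sema3d null and 6522 in wildtype guts; 10 of 10 were positive with a median of 0.176, 3 had an unadjusted p below 0.05 and 0 were called. The part of these cell types in the shift of the ribosomal protein genes was not tested.

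In double null guts the ribosomal protein genes lay at wildtype or slightly below it. The authors' deposited table called 0 of the 86, against 2.10% of all 24663 genes tested. Unadjusted, 2 members (2.33%) had a p below 0.05, against 6.71% of all genes: Rpl26 at 0.85 ± 0.31 and Rplp1 at -0.09 ± 0.05 in the authors' deposited table. The median over all 86 was -0.023 (a change of -1.57%), against 0.0058 over the 12268 genes with a level of at least 50. A negative coefficient was given to 66 of the 82 members by the authors' deposited table, and their derived errors had a median of 0.046. Among members with a level of at least 50, the lowest coefficient after that of Rps3a1 was -0.11 ± 0.07 for Rps15a in the authors' deposited table. The stalk protein genes Rplp1 and Rplp0 came next, at -0.09 ± 0.05 and -0.08 ± 0.04, and their partner Rplp2 had -0.03 ± 0.05 in the authors' deposited table. Rpl21 had 0.37 ± 0.23 in the authors' deposited table and its sum with copies -0.037 with 8 of 31 copies left out, or 0.068 with fits that did not converge included and 7 left out. Of the 10 endothelium markers 5 were called higher in these guts per the authors' deposited table, with a median of 0.242 and a summed level of 7518 in double null and 6335 in wildtype guts, and their part in the values of the ribosomal protein genes was not tested.

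The interaction term asks whether the double null differs from the sum of the single null changes on the log2 scale. For the ribosomal protein genes it was below 0 in nearly all members. The authors' deposited table called 1 of the 86, Rpl29, against 0.164% of all 26258 genes tested. At an unadjusted p below 0.05 there were 26 members (30.2%), against 6.79% of all genes. Of the 26, 25 (29.1%) were negative, against 2.72% of all genes, and the positive one was Rps3a1. The 25 include the low-level Rpl39l, Rpl6l and Rps27rt, whose wildtype levels were under 50. The median interaction over all 86 was -0.206, against -0.0012 over the 12418 genes with a level of at least 50, and 75 of the 82 members at that level were negative in the authors' deposited table. Of these 82 members 8.54% were positive, against 49.8% of all genes at that level. After the trend over coding length was removed the members' median was -0.110. All members share the same 24 libraries, so these counts do not come from independent measurements.

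Rpl29 had an interaction of -1.05 ± 0.26 (95% interval -1.56 to -0.55, adjusted p = 0.0380 in the authors' deposited table from DESeq). By the same fit in the authors' deposited table its coefficients were 0.84 for Ret null, 0.69 for Sema3d null and, summed with the interaction, 0.47 for double null guts. The double null value was thus below either single null value. Among the largest negative interactions at higher levels were Rps18 at -0.60 ± 0.31, Rps2 at -0.57 ± 0.48 and Rpl30 at -0.39 ± 0.14 in the authors' deposited table, with adjusted p-values of 0.743, 0.880 and 0.368. Rps24 had -0.29 ± 0.11 and Rpsa -0.32 ± 0.14 in the authors' deposited table. Rps3a1, at 0.84 ± 0.34 (p = 0.0119, adjusted p = 0.517 in the authors' deposited table), Rpl34 at 0.62 ± 0.41, Rpl21 at 0.20 ± 0.26 and Rps7 at 0.13 ± 0.12 were the largest positive ones.

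**Figure D5:**
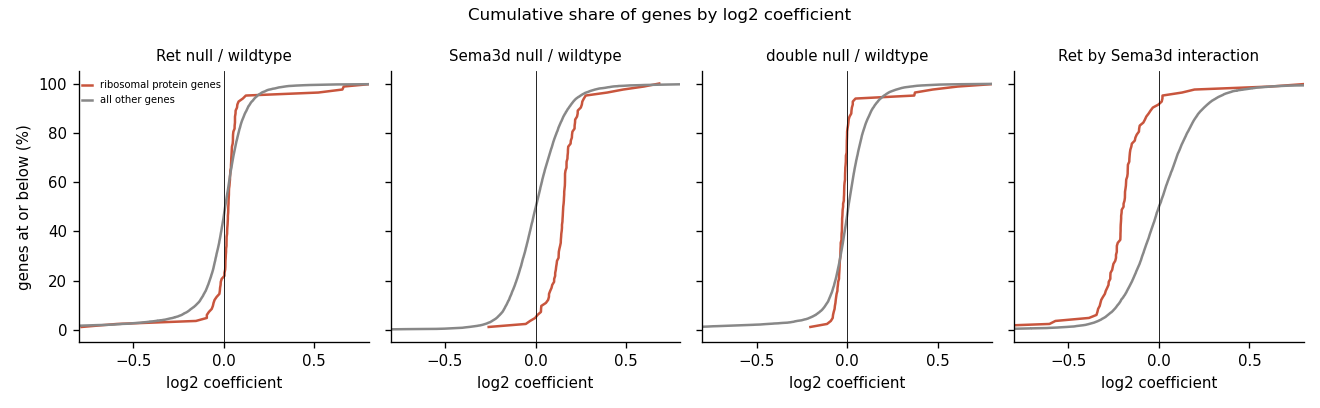
Cumulative share of genes (vertical axis, %) at or below a log2 coefficient (horizontal axis, shown from -0.8 to 0.8) in the 4 deposited tables, for 82 ribosomal protein genes and for all other genes with a level of at least 50 normalised counts. The members' curve is steeper than that of the other genes in the 3 comparisons with wildtype, lies to the right of it in Sema3d null guts (median 0.154) and to the left of it for the interaction (median -0.195).

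Lists of other genes of the translation machinery had 0 genes called in each of the 4 authors' deposited tables. The mitochondrial ribosomal proteins, the other TOP messenger RNAs and the translation factors had medians of the same sign as the members in all 4 tables. The lists of ribosome biogenesis, of transcriptional regulators and of p53 targets did not. The same signs were also those of short genes in general. Other protein-coding genes under 1000 coding bases had medians of 0.018 in Ret null, 0.047 in Sema3d null and -0.0078 in double null guts. Their median interaction was -0.074. The lists of other TOP messenger RNAs and of translation factors share their gene of highest wildtype level, so they are not separate. The 77 mitochondrial ribosomal protein genes, which build the separate ribosome of the mitochondrion, had median log2 changes of 0.034 in Ret null, 0.064 in Sema3d null and -0.034 in double null guts, and a median interaction of -0.127. In Sema3d null guts 62 of the 77 were positive. The 21 measured genes of other TOP messenger RNAs had medians of 0.017, 0.086 and -0.034, and an interaction of -0.132. Among them is Fau, which encodes Rps30 fused to a ubiquitin-like protein. Fau had 0.23 ± 0.15 in Sema3d null guts per the authors' deposited table.

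The 38 translation factors had medians of 0.0065 in Ret null, 0.041 in Sema3d null and -0.050 in double null guts. The 80 measured ribosome biogenesis genes, which make and process ribosomal RNA, had medians of 0.0056, -0.013 and -0.046. The 21 regulators of ribosomal protein transcription, Myc among them, had medians of 0.0045, -0.028 and -0.0047. The 23 measured p53 target genes had medians of -0.030, -0.035 and -0.023, and 0 of them were called in any of the authors' deposited tables.

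Members with and without the pyrimidine run had similar medians, which were not tested against each other. With a level of at least 50, the 32 members with the run had a median log2 change of 0.161 in Sema3d null guts (quartiles 0.134 and 0.197), and the 30 matched members without it had 0.140 (quartiles 0.0865 and 0.169). In Ret null guts the medians were 0.021 with the run and 0.023 without.

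Coefficients for sex were small for most members. The sex coefficient of the 24-gut fit, log2 of male over female, had a median of 0.016 over 78 autosomal members and 0.049 over the 4 X-linked ones; the autosomal members ran from -0.21 (Rpl29) to 0.31 (Rps2), with no p deposited for it. The sex coefficients of the 12-gut fits spread more widely over the autosomal members, from -0.64 to 0.58 in the Ret null table (17 of 78 positive), from -0.42 to 0.67 in the Sema3d null table (66 of 78 positive) and from -0.59 to 0.34 in the double null table (34 of 78 positive). In the 24-gut fit Rpl10, Rpl39, Rpl36a and Rps4x, the X-linked members, had 0.046, -0.0031, 0.053 and 0.063 in the authors' deposited table. Rps4x, whose human counterpart escapes X inactivation, had a level of 10423 in double null, 11477 in Sema3d null, 10501 in Ret null and 10620 normalised counts in wildtype guts. Its log2 changes were -0.02 ± 0.04 in Ret null, 0.11 ± 0.10 in Sema3d null and -0.03 ± 0.04 in double null guts per the authors' deposited tables.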

How the data were processed

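RNA-seq libraries came from 24 guts. The submitters' processing notes name GRCm38 and the tools FastQC 0.11.5, Trimmomatic 0.36, STAR (no version given), RSEM 1.2.31 and, for the models, DESeq 1.24.0, without roles or order. The authors deposited log2 coefficients for sex and genotype from 12-gut models. The 24-gut coefficients the authors deposited were recorded as a score, because a few unbounded fits exceed what a log2 value can reach; the deviances they deposited are scores of fit. Both p-values, raw and adjusted, come from the authors, and p equals the chi-square tail of the deviance difference within 4.91e-09. The headers name no base of the logarithm, which was read as 2. In the Ret null file the headers of symbol and gene type are exchanged, so columns were read by content. Depth per gut is unknown, and nothing says whether the guts of a group came from separate litters.

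A derived error is the size of a coefficient over the root of the difference in deviance, and 95% intervals rest on it. Coefficients beyond 15 were read as unbounded. A fitted level is 2 to the intercept, averaged over the sexes. Members were called at an adjusted p below 0.05 over all genes of a table. The other rules tried, a looser threshold of 0.1 among them, are given with the dependence on processing. No stricter threshold was tried. A copy is any gene whose transcript holds, unchanged, a 100-base window of the member's coding sequence in GENCODE M21 (GRCm38), and copies were summed where their fits converged and were bounded, or, as an alternative added after the data were seen, also where they did not converge. The length trend was the median in 20 bins of coding length over other protein-coding genes. Python 3.11.15, pandas 2.3.3, scipy 1.17.1 and matplotlib 3.10.9 were used, and the code was tested on simulated data. The text names members called in any table, the 4 largest and 4 smallest changes per table, the 5 highest and 5 lowest levels, X-linked members and paralog pairs; others were named for a known role or their level per kilobase, after their values were seen. Members and lists were chosen with earlier results of these data known.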

Additional observations from a re-analysis of the deposited data

Results flagged for a closer look

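Rpl29 differed between genotypes by the test of the interaction itself: its coefficient was -1.05 ± 0.26 in the authors' deposited table (DESeq, adjusted p = 0.0380), so that the double null change was below the sum of the single null changes. Its copies Gm13841 and Gm8210, whose 24-gut fits did not converge, were highest in wildtype guts, and with all copies summed the interaction from the fitted levels was -0.35, with no error or test. The processed copies Rps3a2 and Rps3a3, which share most of their sequence with Rps3a1, had interactions of -7.44 ± 1.42 (adjusted p = 5.30e-04) and -10.47 ± 1.53 (adjusted p = 3.61e-08) in the authors' deposited table. Rps3a1 itself had 0.84 ± 0.34 (adjusted p = 0.517) in the authors' deposited table. Both copies were low in wildtype guts, with fitted levels of 35.1 and 2.80 normalised counts. Rps3a1 summed with its copies had log2 changes of 0.046 in Ret null, 0.13 in Sema3d null and -0.012 in double null guts. These come from the 24-gut fitted levels and have no error or test. How reads were divided between these genes was not tested. No values per gut are given, so a single gut far from the others could not be looked for.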

How the results depend on the processing

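No paired analysis was possible because the tables hold no value per gut, and leaving out each replicate was not run for the same reason. The counts of members called (2, 0, 0 and 1) were the same in all 5 alternatives tried for each: adjustment over genes with a level of at least 50, over protein-coding genes, or over converged and bounded fits, leaving out paralogs and Rps19bp1, and an adjusted p below 0.1. Leaving out paralogs and Rps19bp1 could not lower these counts, because neither Rpl29 nor Rps3a1 was left out. None of the 5 alternatives changes how reads were divided between a member and its copies. The adjusted p of Rps3a1 in Ret null guts lay between 0.0170 and 0.0246 in the 3 that adjust it anew, and that of the Rpl29 interaction between 0.0205 and 0.0419. Every alternative median kept its direction and moved by less than the median derived error of a single member, which is not the error of a median; the largest shift came with the trend over coding length removed (0.095 in place of 0.157 in Sema3d null guts, -0.110 in place of -0.206 for the interaction, 0.0056 in place of 0.026 in Ret null and -0.011 in place of -0.023 in double null guts). Added after the data were seen, the sum with copies reversed Rps3a1 in Ret null guts (0.046 against -0.79), with or without fits that did not converge; for Rpl29, not called in those comparisons, such fits turned the sum to -0.66 in Sema3d null and -0.43 in double null guts. Also added after the data were seen, leaving out members with 50% or more of windows shared gave medians of 0.017 for Ret null, 0.158 for Sema3d null and -0.027 for double null guts, and -0.184 for the interaction. With depth unknown, no limit from counting can be given.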
